A study of Homo sapiens with 4 samples.

Results

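The genes described here are the matrix metalloproteinases MMP1, MMP2, MMP3, MMP10 and MMP14, the tissue inhibitors of metalloproteinases TIMP1, TIMP2 and TIMP3, and the related proteases ADAMTS1 and ADAM12. A probe set, the group of probes that measures 1 transcript on an Affymetrix array, was taken when its annotation named exactly 1 of these 10 genes, which gave 19 of the 22277 probe sets on the array (10 of 11963 genes named in this way). RNA came from BJ-TE cells, a line whose parent, BJ, was grown from the fibroblasts of human foreskin. The 4 groups of 1 array were p73 shRNA at 100% confluence, ns shRNA at 100% confluence, p73 shRNA at 40% confluence and ns shRNA at 40% confluence. The p73 shRNA is a short hairpin RNA against the transcription factor p73 and ns shRNA is its control. All cells carried a hairpin, 1 hairpin stands for each arm, and the labels do not say whether the cultures were set up separately.

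Matrix metalloproteinases are zinc-dependent proteases that are secreted or membrane-bound as inactive precursors and, once activated, cut collagens, proteoglycans and other matrix proteins. TIMPs bind the active site of these enzymes and block it, so the balance of both sets the rate at which fibroblasts remodel the matrix around them. ADAM and ADAMTS proteases share the catalytic fold; ADAMs are mostly membrane-anchored and shed growth factors, whereas ADAMTS enzymes are secreted and cut proteoglycans such as versican.

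The arrays had similar medians (intensity 105 to 122), but the 99th percentile of intensity was 13157 on the p73 shRNA array at 40% confluence, against 10196 to 11420 for the rest. The ratio of 3' to 5' intensity for beta-actin, which reads how intact the RNA was, lay at 1.38 (p73 shRNA) and 1.47 (ns shRNA) at 100% confluence, and 1.09 (p73 shRNA) and 1.24 (ns shRNA) at 40%. The same ratio for GAPDH was 1.02 with each hairpin at 100% confluence, and 0.98 (p73 shRNA) and 0.93 (ns shRNA) at 40%. Of the fibroblast markers 10 of 10 lay above the brightness filter, against 0 of 6 epithelial, 0 of 5 endothelial and 0 of 3 measured blood markers, and 3 of 5 smooth muscle markers (ACTA2, CNN1 and TAGLN, with MYH11 and DES below it). TP73, the target of the hairpin, had intensities of 2.04 (p73 shRNA) and 1.65 (ns shRNA) at 100% confluence and 2.09 and 1.68 at 40%. These are too dim to check whether the hairpin lowered p73 or which arrays carried it.

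Ratios are given as log2 of (intensity + 11.6), which understates changes of dim probe sets. Of the 19 member probe sets 15, from 9 genes, passed a filter on mean brightness (intensity of about 111) and entered the test. The test was limma with confluence and hairpin as additive factors over all 4 arrays and Benjamini-Hochberg adjustment over 11108 probe sets, with an adjusted p below 0.05 called. Just inside the filter lay MMP14 probe set 202828_s_at, with a mean of 6.97 on the log2 scale, and the brightest of the 4 below it was 217279_x_at, also of MMP14, with a mean of 6.19. The other dim ones were the MMP10 probe set and 204943_at and 215613_at of ADAM12. Each comparison rests on a pair of arrays per level, and the p-values cover no spread beyond that of these 4 arrays. With 1 array a group, a probe set's only residual is the difference of its hairpin ratios between the stages, with 1 degree of freedom. The fit adds 10.5 prior degrees of freedom from the tested probe sets as a whole. The SE and p-values thus measure no spread between replicate arrays, and a hairpin difference at only 1 stage counts as error. In bulk RNA, fewer cells of a type and less RNA per cell cannot be told apart.

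**Figure D1:**
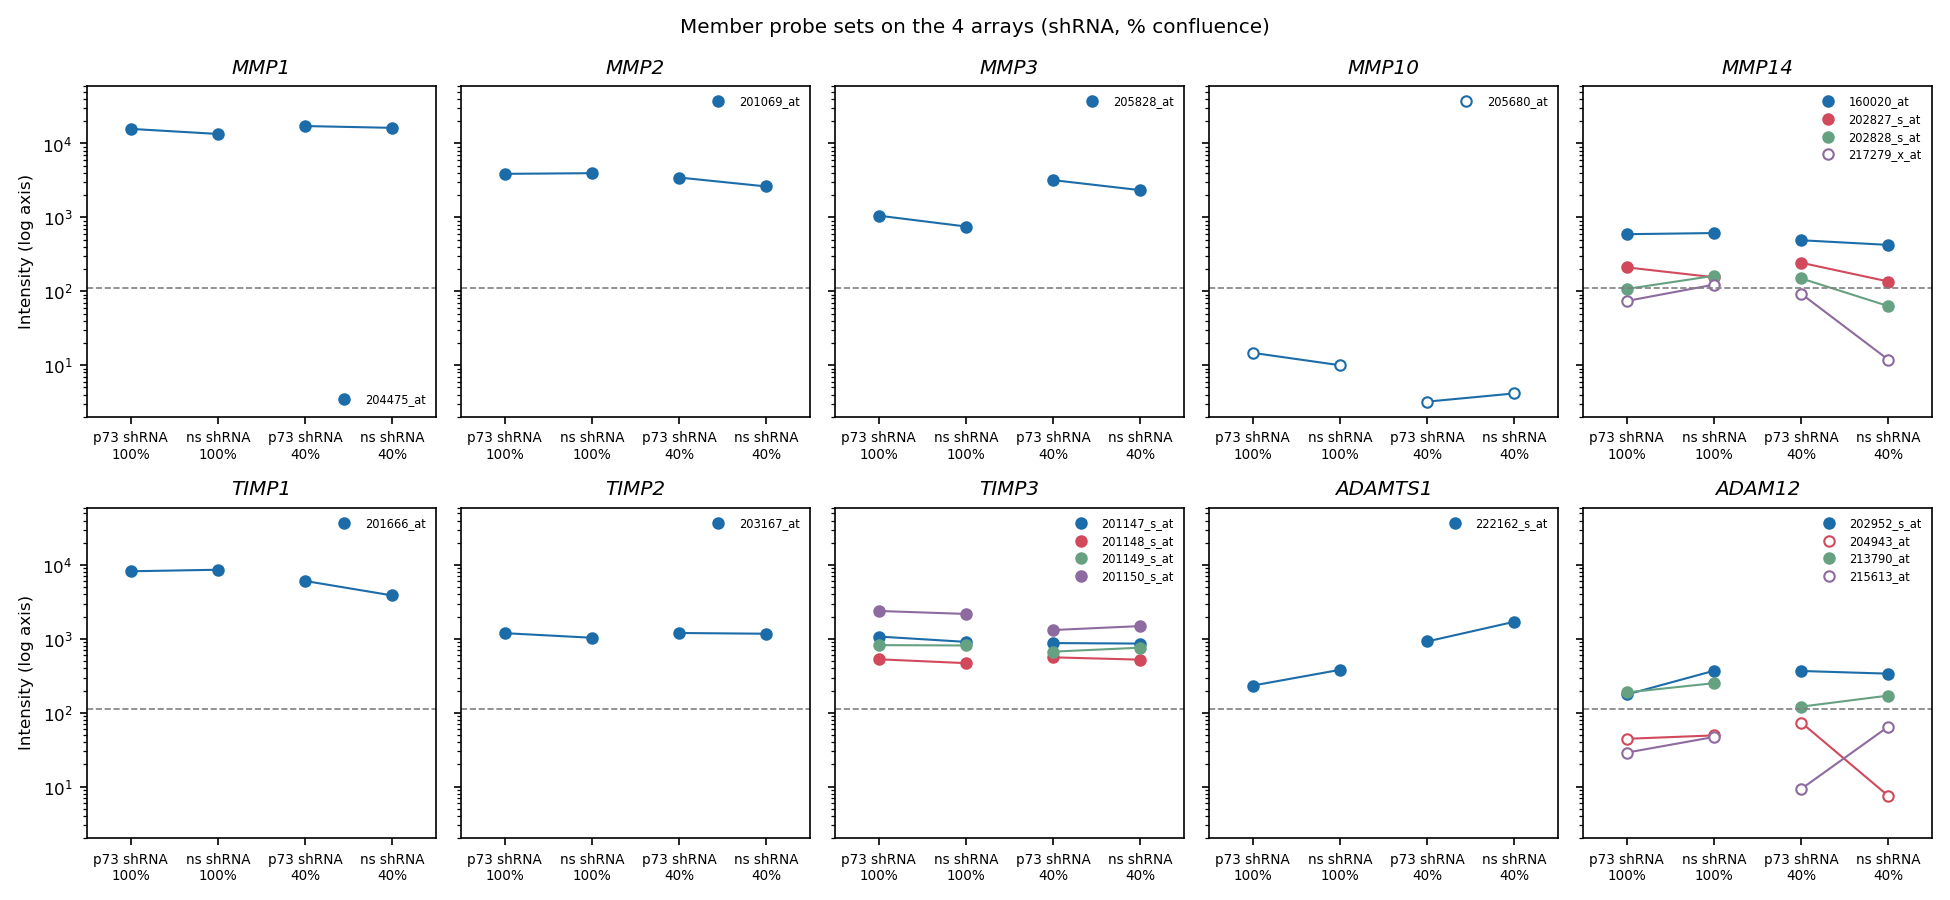
Intensity of each member probe set (log axis) on the 4 arrays, with p73 shRNA left of ns shRNA and 100% confluence left of 40%. Each colour is 1 probe set, open points mark probe sets below the brightness filter (dashed line, intensity 111), and lines join the hairpins of 1 stage. MMP3 and ADAMTS1 are lower on both arrays at 100% confluence, TIMP1 is higher there, and MMP1 stays between 13466 and 17225 on all 4 arrays.

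The contrast of 100% with 40% confluence asks how these genes differ between the stages that the study's design text names. The stromelysin MMP3 and the proteoglycan-cutting ADAMTS1 fell at 100% confluence, by 3.04-fold and 4.08-fold on average. The inhibitor TIMP1, 1 of 4 probe sets of TIMP3 and 1 of 2 tested probe sets of ADAM12 rose, by 1.73-fold, 1.62-fold and 1.48-fold. The interstitial collagenase MMP1, the gelatinase MMP2, the membrane-type protease MMP14 and the inhibitor TIMP2 did not pass the test. In counts, 3 of the 15 tested member probe sets rose and 2 fell, beside 16.0% of all tested probe sets that rose and 11.2% that fell, so the members' shares lie near the background. At least 2-fold the same way with both hairpins, 0 of 15 member probe sets were higher and 2 were lower, beside 3.13% and 1.29% of all tested probe sets.

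ADAMTS1, an enzyme with thrombospondin motifs that cuts aggrecan and versican, had intensities of 234 (p73 shRNA) and 381 (ns shRNA) at 100% confluence, against 923 (p73 shRNA) and 1706 (ns shRNA) at 40%. The log2 ratios of 100% over 40% were -1.93 with p73 shRNA and -2.13 with ns shRNA. The average change was -2.03 (SE 0.18, limma adjusted p 1.71e-05), rank 21 from the lowest of 11108 probe sets.

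MMP3, which cuts proteoglycans and fibronectin and can activate the precursor of MMP1, had intensities of 1055 (p73 shRNA) and 752 (ns shRNA) at 100% confluence. At 40% they were 3194 (p73 shRNA) and 2336 (ns shRNA). The ratios of -1.59 with p73 shRNA and -1.62 with ns shRNA were close to each other, and the average was -1.60 (SE 0.17, limma adjusted p 8.71e-05). MMP3 and ADAMTS1 were also the only tested members that changed at least 3-fold the same way with both hairpins.

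The genes beside MMP3 in the cluster of metalloproteinases on chromosome 11 did not pass the test or were too dim for it. In RefSeq's gene order on GRCh38.p14, MMP10, MMP1 and MMP3 are direct neighbours among protein-coding genes, and MMP12 follows MMP3. The brightest probe set of MMP12 had 7.17 (p73 shRNA) and 17.8 (ns shRNA) at 100% confluence. At 40% it had 13.3 (p73 shRNA) and 13.2 (ns shRNA), and it lay below the brightness filter. MMP1, which cuts fibrillar collagen, had 15769 (p73 shRNA) and 13466 (ns shRNA) at 100% confluence, against 17225 (p73 shRNA) and 16285 (ns shRNA) at 40%. Its average change was -0.20 (SE 0.17, limma adjusted p 0.418), and it turned to 0.10 after quantile normalization of the arrays. MMP1 lay at the 99.3rd to 99.6th percentile of intensity on the 4 arrays. MMP10, another stromelysin, was dim on all arrays, with intensities of 14.7 (p73 shRNA) and 9.98 (ns shRNA) at 100% confluence against 3.21 (p73 shRNA) and 4.14 (ns shRNA) at 40%, and was not tested.

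Among the other metalloproteinases, MMP2, which degrades basement membrane collagen and gelatin, had intensities of 3884 (p73 shRNA) and 3965 (ns shRNA) at 100% confluence and 3463 (p73 shRNA) and 2622 (ns shRNA) at 40%. Its average change of 0.38 (SE 0.18, limma adjusted p 0.144) did not pass, and passed only with an intensity trend in the model of the spread (limma adjusted p 0.025). MMP14, the membrane protease that activates the MMP2 precursor in a complex with TIMP2, was brightest at probe set 160020_at, with 592 (p73 shRNA) and 614 (ns shRNA) at 100% confluence and 491 (p73 shRNA) and 424 (ns shRNA) at 40%. The average change of this probe set, 0.39 (SE 0.18, limma adjusted p 0.118), did not pass. The other tested probe sets of MMP14 did not pass either, with averages of -0.0098 for 202827_s_at (SE 0.18, limma adjusted p 0.976) and 0.39 for 202828_s_at (SE 0.30, limma adjusted p 0.35).

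Of the inhibitors, TIMP1, a secreted TIMP that is known to be induced by growth factors and cytokines in fibroblasts, had intensities of 8223 (p73 shRNA) and 8627 (ns shRNA) at 100% confluence. At 40% it had 6081 (p73 shRNA) and 3872 (ns shRNA), with a wider spread between the hairpins than at 100%. The ratio of 100% over 40% was 0.43 with p73 shRNA and 1.15 with ns shRNA, and the average was 0.79 (SE 0.20, limma adjusted p 0.0137). The call was lost with the hairpin left out of the model (limma adjusted p 0.0665).

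TIMP3, which binds to the matrix and also inhibits ADAM and ADAMTS proteases, was measured by 4 probe sets, all above the filter. Probe set 201150_s_at had 2387 (p73 shRNA) and 2175 (ns shRNA) at 100% confluence, against 1318 (p73 shRNA) and 1491 (ns shRNA) at 40%. It rose by 0.70 on average (SE 0.18, limma adjusted p 0.0141). The other 3 had average changes of -0.12 to 0.19 and none passed, so the probe sets of TIMP3 did not give 1 answer, and the mean over them was 0.24 (limma adjusted p 0.268). TIMP2, the inhibitor that takes part in MMP2 activation, had 1195 (p73 shRNA) and 1036 (ns shRNA) at 100% confluence and 1201 (p73 shRNA) and 1174 (ns shRNA) at 40%. Its range of 0.21 on the log2 scale over the 4 arrays was the narrowest of all member probe sets.

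RefSeq promoter sequences (GRCh38.p14) were at hand for 5 of the 10 genes: MMP10, MMP14, TIMP1, TIMP3 and ADAM12. Those of TIMP1 and TIMP3 are shown because both inhibitors had a probe set that rose at confluence. The 250 bases before the gene's start are printed 5′ to 3′ on the gene's strand; TIMP1 lies at chrX:47582186-47582435 on the plus strand and TIMP3 at chr22:32801455-32801704 on the plus strand. Capitals mark matches to the motifs searched.
TIMP1: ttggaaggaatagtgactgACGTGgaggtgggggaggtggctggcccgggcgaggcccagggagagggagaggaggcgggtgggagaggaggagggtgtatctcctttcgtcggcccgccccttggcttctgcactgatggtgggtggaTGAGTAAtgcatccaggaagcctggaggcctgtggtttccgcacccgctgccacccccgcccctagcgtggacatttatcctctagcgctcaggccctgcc
TIMP3: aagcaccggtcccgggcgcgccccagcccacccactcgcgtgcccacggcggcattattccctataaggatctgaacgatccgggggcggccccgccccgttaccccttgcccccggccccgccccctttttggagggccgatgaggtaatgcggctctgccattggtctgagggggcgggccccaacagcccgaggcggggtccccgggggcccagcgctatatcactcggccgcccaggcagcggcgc
In a window of 300 bases that adds 50 after the start, 5 motifs were searched on both strands: the AP-1 motif TGANTCA, an AP-1-like form TGAGTAA, the core of the hypoxia response element ACGTG, the TATA box TATAAA and an Ets motif CCGGAAG. The searched motifs overlap at no match in these windows. TIMP1 held TGAGTAA 101 bases before the start and ACGTG 231 bases before it, and the TIMP3 window held none of the 5. Of 35116 RefSeq promoters of that length, 2.57% held TGAGTAA, 21.4% ACGTG, 7.71% TGANTCA, 11.5% TATAAA and 10.3% CCGGAAG. The promoters of the inhibitors also differed in base composition, with 64.8% G and C for TIMP1 and 72.4% for TIMP3. A match describes these letters and no binding was measured.

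ADAM12, a membrane-anchored disintegrin protease that can cut insulin-like growth factor binding proteins, had 4 probe sets, of which 2 passed the filter and had averages of opposite sign. Probe set 213790_at had 189 (p73 shRNA) and 252 (ns shRNA) at 100% confluence and 121 (p73 shRNA) and 171 (ns shRNA) at 40%. It rose by 0.56 (SE 0.17, limma adjusted p 0.0321), a call that was lost after quantile normalization (limma adjusted p 0.0926), with the intensity trend (limma adjusted p 0.0781) and without the hairpin in the model (limma adjusted p 0.138). Probe set 202952_s_at had 177 (p73 shRNA) and 371 (ns shRNA) at 100% confluence and 368 (p73 shRNA) and 338 (ns shRNA) at 40%. Here the p73 shRNA array at 100% confluence stood below the other 3, and the average of -0.44 did not pass (SE 0.24, limma adjusted p 0.192).

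**Figure D2:**
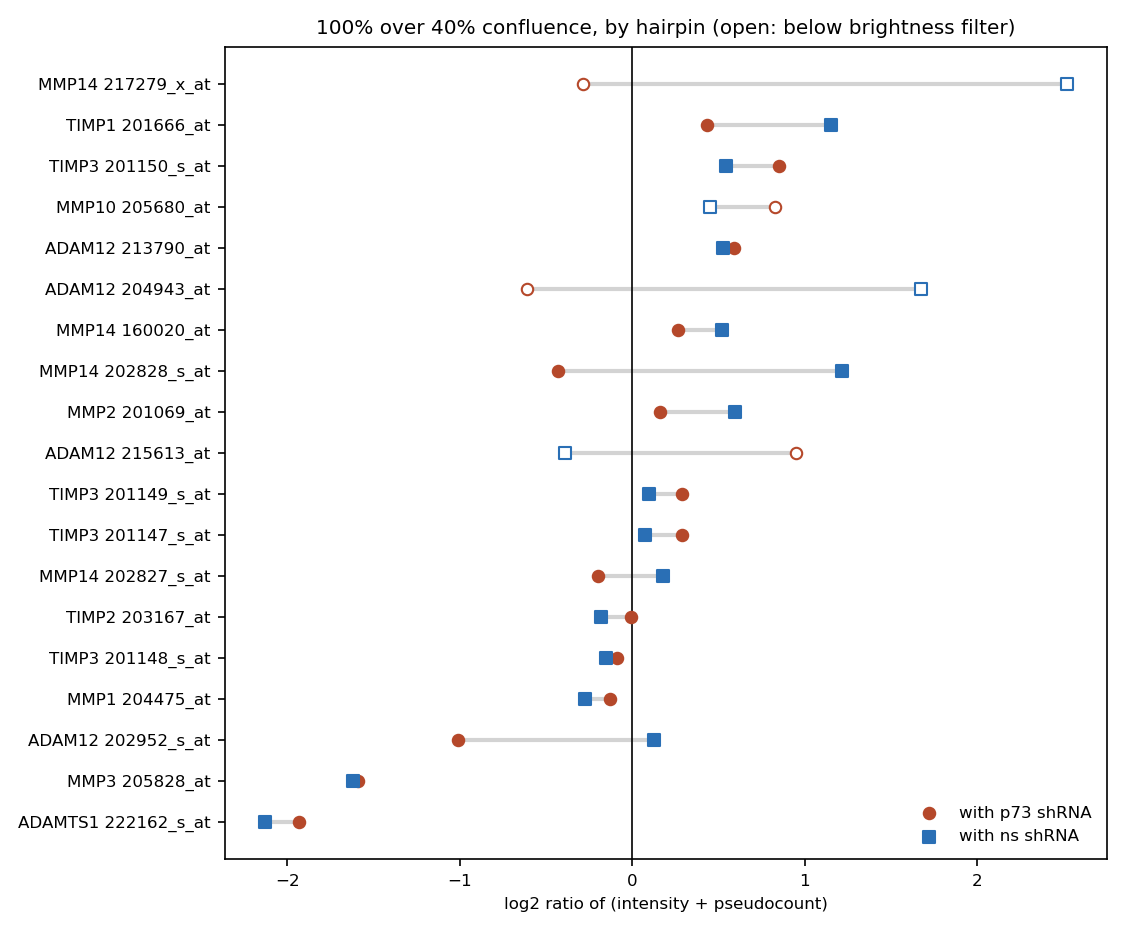
Log2 ratio of 100% over 40% confluence for each member probe set, with p73 shRNA (circles) and with ns shRNA (squares), ordered by the average and with open points below the brightness filter. ADAMTS1 and MMP3 stand apart at the low end with ratios from -2.13 to -1.59, and the wide bars belong mainly to dim probe sets of MMP14 and ADAM12.

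The confluence calls were all lost in the run with no brightness filter, where limma called 0 of 22215 probe sets and 3819 had an unadjusted p below 0.05. That run also had fewer prior degrees of freedom (2.3 against 10.5), and the cause of the lost calls was not tested. Marker levels also differed between the stages. The summed intensity of the 5 smooth muscle markers was 4019 (p73 shRNA) and 4748 (ns shRNA) at 100% confluence and 6966 (p73 shRNA) and 7118 (ns shRNA) at 40%. Most of that sum was TAGLN, which fell by 0.91 on the log2 scale (limma adjusted p 0.00319), while ACTA2 rose by 0.82 (limma adjusted p 0.00756) and CNN1 did not pass. That of the 6 epithelial markers was 170.0 (p73 shRNA) and 184 (ns shRNA) at 100% and 115 (p73 shRNA) and 107 (ns shRNA) at 40%, all below the filter. Of the 10 fibroblast markers, each by its brightest probe set, 5 rose and 1 fell at 100% confluence, beside the same 16.0% and 11.2% of all tested probe sets. The part of these markers, and of the 3' to 5' ratios above, in the results was not tested.

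The contrast of p73 shRNA with ns shRNA asks which of these genes differ between the hairpins, with no check that p73 itself was lowered. None of the 15 tested member probe sets passed the test. ADAMTS1 came nearest, 1.72-fold lower on average with p73 shRNA, while MMP3 was 1.38-fold and MMP14 probe set 202827_s_at 1.52-fold higher. MMP1, MMP2 and the TIMPs differed by 1.22-fold or less on average. Among all tested probe sets 7 rose (0.063%) and 12 fell (0.108%), and after quantile normalization 2 rose and 6 fell. Of the member probe sets 0 were at least 2-fold the same way at both stages, beside 0.036% of all tested probe sets higher and 0.099% lower. At an unadjusted p below 0.05 there were 4 of 15 member probe sets and 1221 of 11108 probe sets.

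ADAMTS1 was lower with p73 shRNA at both stages, with 234 (p73 shRNA) against 381 (ns shRNA) at 100% confluence and 923 against 1706 at 40%. The log2 ratios were -0.68 and -0.88 and the average -0.78 (SE 0.18, limma adjusted p 0.12), rank 81 from the lowest. The call depended on the settings: it passed with the intensity trend (limma adjusted p 0.00177), with a filter at the 70th percentile (limma adjusted p 0.0218), with the larger pseudocount (limma adjusted p 0.049) and with the brightest probe set per gene (limma adjusted p 0.0409), which is 4 of 9 alternatives. With the mean of probe sets per gene it did not pass (limma adjusted p 0.207).

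MMP3 was higher with p73 shRNA at both stages, with 1055 (p73 shRNA) against 752 (ns shRNA) at 100% confluence and 3194 against 2336 at 40%. The ratios of 0.48 and 0.45 were close to each other, and the average was 0.47 (SE 0.17, limma adjusted p 0.354, and 0.0643 with the intensity trend). MMP3 and ADAMTS1, which both fell at confluence, thus had ratios of opposite sign for the hairpins.

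TIMP1 had log2 ratios of p73 shRNA over ns shRNA of -0.069 at 100% confluence and 0.65 at 40%, and MMP2 of -0.030 and 0.40. The difference between the stages has no test. The averages were 0.29 for TIMP1 (SE 0.20, limma adjusted p 0.631) and 0.19 for MMP2 (SE 0.18, limma adjusted p 0.751). MMP14 was higher with p73 shRNA on 1 of its 4 probe sets at 100% confluence and on all 4 at 40%. Of the 15 tested member probe sets, from 9 genes, 8 were higher with p73 shRNA at 100% and 11 at 40%, beside 50.8% and 51.1% of all tested probe sets. Several of these probe sets measure the same gene, and all ratios at a stage share the same pair of arrays. The p73 shRNA array at 40% is the one with the brightest top end, and its part in these ratios was not tested. After quantile normalization the ratios at 40% were 0.61 for TIMP1 and 0.40 for MMP2, and the average of MMP1 was -0.070, against 0.15 as deposited.

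**Figure D3:**
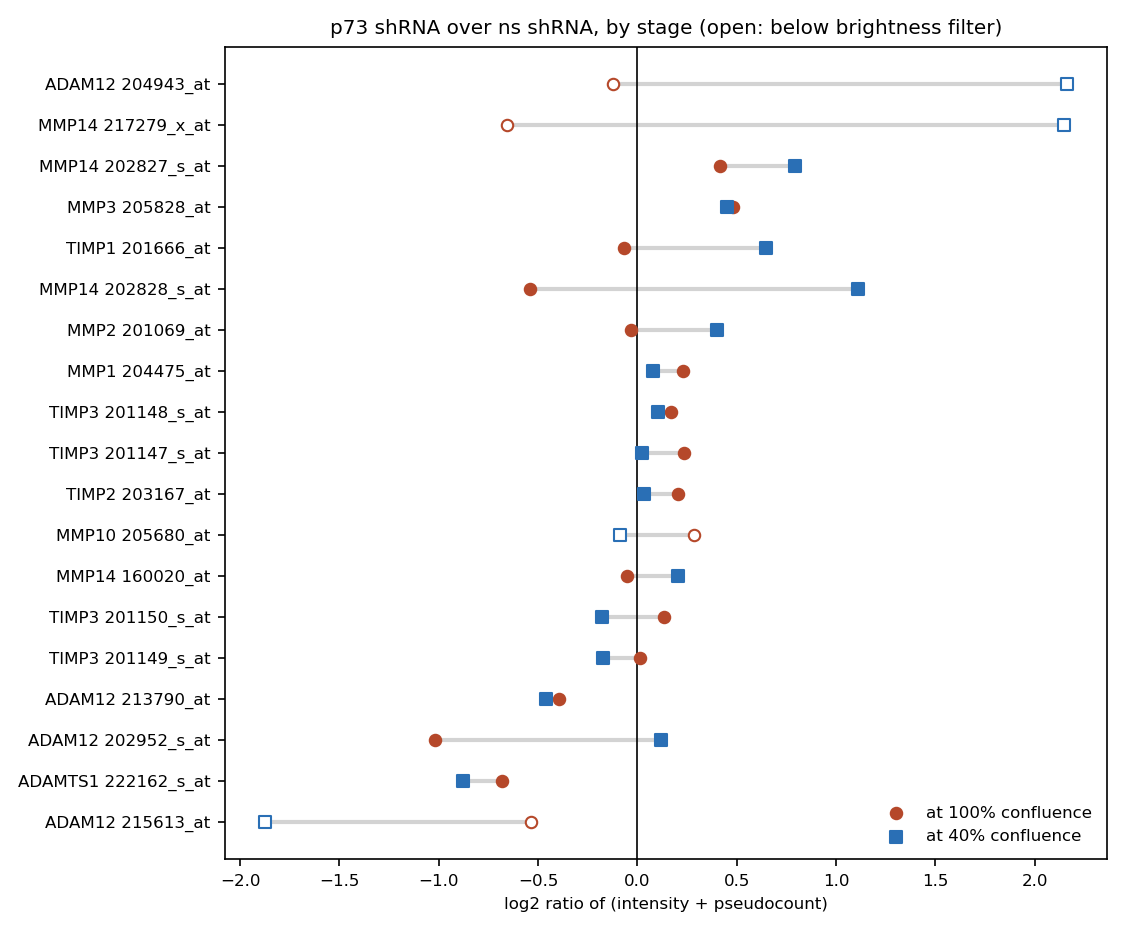
Log2 ratio of p73 shRNA over ns shRNA for each member probe set at 100% confluence (circles) and at 40% (squares), ordered by the average and with open points below the brightness filter. MMP3 and MMP14 202827_s_at lie right of 0 at both stages and ADAMTS1 and ADAM12 213790_at left of it, while 202828_s_at of MMP14 has ratios of -0.54 and 1.11.

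The probe sets of 1 gene did not always give the same p73 ratio. For MMP14, 202827_s_at had 210 (p73 shRNA) against 155 (ns shRNA) at 100% confluence and 243 against 136 at 40%, an average of 0.60 (SE 0.18, limma adjusted p 0.246). The brightest, 160020_at, averaged 0.077. Probe set 202828_s_at had 108 (p73 shRNA) against 162 (ns shRNA) at 100% confluence and 149 against 63.0 at 40%, so its ratio changed sign between the stages.

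The tested probe sets of ADAM12 were both lower on average with p73 shRNA. Probe set 213790_at had ratios of -0.39 at 100% and -0.46 at 40%, and its average was -0.43 (SE 0.17, limma adjusted p 0.403). Probe set 202952_s_at had -1.02 at 100% and 0.12 at 40%, with an average of -0.45 (SE 0.24, limma adjusted p 0.51). The 4 probe sets of TIMP3 averaged -0.080 to 0.14 and TIMP2 0.12 (SE 0.17, limma adjusted p 0.849).

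**Figure D4:**
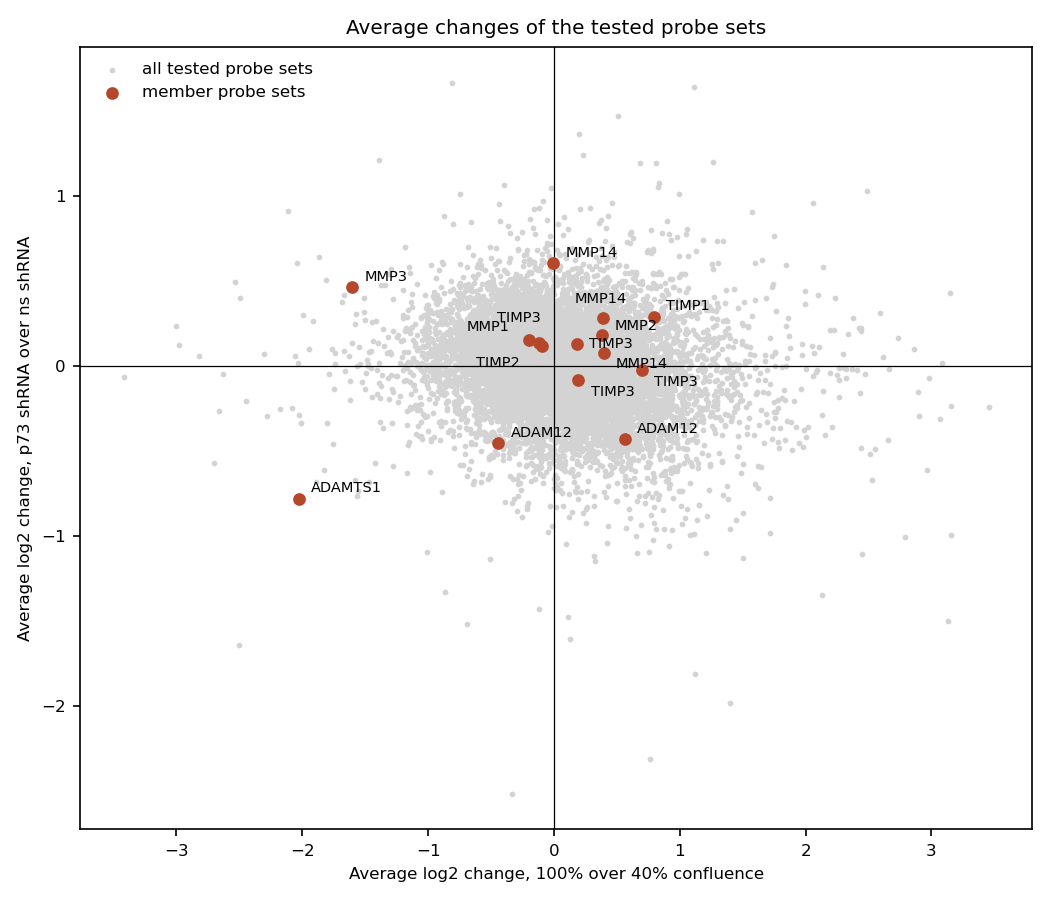
Average log2 change at 100% over 40% confluence (x axis) and with p73 shRNA over ns shRNA (y axis) for the 11108 tested probe sets (grey) and the 15 tested member probe sets (red, labelled by gene). ADAMTS1 lies at -2.03 and -0.78, MMP3 at -1.60 and 0.47, and MMP14 202827_s_at at -0.0098 and 0.60. The other members lie between -0.44 and 0.79 on the x axis and between -0.45 and 0.29 on the y axis.

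Other genes of the family and its regulators were described from lists of 18 further MMPs, 28 further ADAM and ADAMTS proteases and 12 regulators, each gene by its brightest probe set. Among the further MMPs 1 of 16 measured, MMP19, lay above the filter, which is a cut at median brightness and not a limit of detection. Of the ADAM and ADAMTS genes 6 of 18 measured did so, and of the regulators 8 of 12. With p73 shRNA 0 of these 15 genes passed in the main fit, and TFPI2 and ADAM9 passed with the intensity trend. TFPI2 was higher with p73 shRNA, with log2 ratios of 0.66 at 100% confluence and 0.89 at 40%. Its average was 0.78 (SE 0.18, limma adjusted p 0.125, and 6.32e-05 with the trend). ADAM9 was lower, with ratios of -0.21 at 100% and -0.69 at 40%. Its average was -0.45 (SE 0.19, limma adjusted p 0.411, and 0.0491 with the trend). The medians of average change were -0.29 for the 6 ADAM and ADAMTS genes and 0.066 for the 8 regulators, beside 0.0028 for all tested probe sets.

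At 100% confluence 8 of the 15 genes rose and 2 fell, beside 16.0% and 11.2% of all tested probe sets. The units differ, since these shares also count the dimmer tested probe sets of a gene. The sheddase ADAM8 had 261 (p73 shRNA) and 383 (ns shRNA) at 100% confluence against 84.7 (p73 shRNA) and 76.3 (ns shRNA) at 40%, an average of 1.83 (SE 0.20, limma adjusted p 8.87e-05). At 40% both ADAM8 values lie under the filter's intensity of 111, so ADAM8, 1 of the 8 that rose, entered the test only through the arrays on which it was high. The proprotein convertase FURIN, which activates MMP14 and many ADAMs, rose by 0.94, RECK, a membrane-anchored inhibitor of MMPs, by 0.82, the serine protease inhibitor TFPI2 by 0.91 and MMP19 by 0.71. ADAM19 fell by 0.80 on the log2 scale (limma adjusted p 0.0169). The others that passed were ADAMTS2, which trims procollagen (0.67), SPOCK1 (0.66) and ADAM17 (0.54), which rose, and SDC1 (-0.54), which fell. The medians were 0.49 for the 6 ADAM and ADAMTS genes and 0.47 for the 8 regulators, beside 0.0072 for all tested probe sets.

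For the members whose brightest probe set ranged over at least 1 on the log2 scale, the most similar profiles were found by the distance between log2 values centred on their mean, across 6759 genes and 4 arrays. For ADAMTS1 they were NRG1 (distance 0.17) and HBEGF (0.27). NRG1 had intensities of 215 (p73 shRNA) and 323 (ns shRNA) at 100% confluence and 765 (p73 shRNA) and 1338 (ns shRNA) at 40%. For MMP3 they were PYCR3 (0.25) and SLC3A2 (0.26), for TIMP1 CDC25C (0.031) and TMEM187 (0.068), and for ADAM12 HCFC1 (0.18) and MFSD12 (0.18). With 4 arrays many genes lie close to any profile, so these are descriptions only.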

How the data were processed

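Per the labels' protocols, trizol was used to extract total RNA of BJ-TE cells, and biotin labelling followed Affymetrix's standard procedure. The deposited table holds 1 intensity per probe set and array; the sources used here do not name the software behind it. With 2% trimmed at each end the array means lie between 500.1 and 500.2, so the intensities were taken as scaled already and used as deposited; a shift common to most genes is not visible after such scaling. Of 22277 probe sets 62 were controls; of the rest, 19064 carried 1 gene symbol, 1043 carried more and 2108 had no entry; 19052 were matched to current symbols by Entrez ID.

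Values became log2(intensity + 11.6), with the 20th percentile of the intensities as pseudocount, and probe sets were tested when their mean reached the median, 6.94. limma 3.58.1 in R 4.3.3 fitted confluence and hairpin without an intensity trend (two-sided; 1 residual degree of freedom, 10.5 prior degrees of freedom). A trend gave infinite prior degrees of freedom, which ignores a gene's own residual, so it served as an alternative. The number of arrays limits the precision. The fit was also run on simulated data with independent errors and hairpin changes equal at both stages. That setting differs from the real arrays, and no conclusion is drawn from it. Ratios at 1 stage or with 1 hairpin have no replicate check and no test.

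The members, lists and rules were chosen with earlier results of these data known. All 10 member genes are named. From the other lists the 6 genes with the largest called change are named, and the remaining called genes complete the counts, chosen after their values were seen. ADAM9 is also named for its call with the trend, and MMP12 as a neighbour of MMP3, both with their values known. Markers were fibroblast, epithelial, endothelial, blood and smooth muscle genes. Alternatives were quantile normalization, pseudocounts at the 5th and 40th percentile, no filter or one at the 70th, the trend, 1 factor, 1 row per gene and fold thresholds. Figures were drawn with matplotlib 3.10.9.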

Additional observations from a re-analysis of the deposited data

Results flagged for a closer look

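The MMP14 probe set 202828_s_at was the 1 tested member probe set whose p73 shRNA ratios at the stages had opposite signs, each beyond the fit's SD of 0.30. Its log2 ratio of p73 shRNA over ns shRNA was -0.54 at 100% confluence and 1.11 at 40%, a difference of -1.65. The same 4 arrays give ratios of 100% over 40% confluence of -0.43 with p73 shRNA and 1.22 with ns shRNA, again a difference of -1.65. With 1 array a group the difference was not tested. The probe set lies just above the brightness filter, and the ns shRNA array at 40% was its dimmest, at intensity 63.0. The MMP14 probe set 217279_x_at, below the filter and not tested, also had ratios of opposite sign, -0.65 at 100% and 2.15 at 40%. The brightest MMP14 probe set had ratios of -0.051 at 100% and 0.20 at 40%.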

How the results depend on the processing

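For p73 shRNA over ns shRNA, limma called 19 probe sets as reported, 8 after quantile normalization, 7 with the 5th percentile pseudocount, 77 with the 40th, 56 with the filter at the 70th percentile, 301 with the trend, 74 with the brightest probe set per gene and 7 with the mean per gene. limma called 0 without a filter, where 1345 had an unadjusted p below 0.05, and 0 without confluence in the model, where 105 did. The same way at both stages, 115 changed at least 1.5-fold, 15 at least 2-fold and 5 at least 3-fold. For 100% over 40% confluence, 3018 were called as reported, 0 without a filter (3819 at an unadjusted p below 0.05), 1727 without the hairpin in the model and 1768 with the mean per gene; 1704, 491 and 125 changed at least 1.5-fold, 2-fold and 3-fold with both hairpins. The other alternatives gave 2070 to 3935 calls. Among members, MMP1 turned to -0.070 for p73 shRNA and to 0.10 for confluence after quantile normalization. With the mean of probe sets, TIMP3 turned to 0.041 for p73 shRNA and ADAM12 to 0.060 for confluence, since probe sets of 1 gene differ in sign. Without a filter all 5 confluence calls were lost, with a limma adjusted p of 0.236 to 0.303. That run took in the dim probe sets and had 2.3 prior degrees of freedom, against 10.5 in the main fit. In all other alternatives run MMP3 and ADAMTS1 stayed called for confluence. The cause of the lost calls and of the other changes was not tested. No paired analysis was possible because each group has 1 array and no replicate numbers; confluence or hairpin in the model plays the part of a block. Leaving out an array was not run, since the model on 3 arrays has no residual degree of freedom. Dim probe sets, such as that of MMP10, are limited by signal over background.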

Other observations

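Of the 4 member probe sets below the brightness filter, 3 ranged over 1.87 to 2.52 on the log2 scale across the arrays. ADAM12 204943_at had intensities of 44.4 (p73 shRNA) and 49.4 (ns shRNA) at 100% confluence and 73.9 (p73 shRNA) and 7.48 (ns shRNA) at 40%. ADAM12 215613_at had 28.9 (p73 shRNA) and 47.1 (ns shRNA) at 100% and 9.32 (p73 shRNA) and 65.1 (ns shRNA) at 40%, the opposite order of hairpins at 40%. MMP14 217279_x_at had 73.9 (p73 shRNA) and 123 (ns shRNA) at 100% and 92.4 (p73 shRNA) and 11.8 (ns shRNA) at 40%, with ns shRNA at 40% the dimmest array, as for 202828_s_at. Of the other promoters searched, MMP10 held TGANTCA 67 bases and TATAAA 31 bases before the start, and ACGTG was found once in those of MMP10 and MMP14 and at 2 places in that of ADAM12.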
